A study of Mus musculus with 12 samples.

Results

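The comparison set Schwann cells sorted from mouse sciatic nerve without further selection, called allSC, against those in a gate enriched for myelinating cells, called mSC. It asked which genes and functions the unselected cells carried beyond the myelinating gate. Libraries were chosen by their labelled gate, and 8 of the 12 libraries of the series entered the comparison, 4 per gate. Each mouse, numbered 1 to 4, gave 1 library per gate, so the allSC and mSC libraries were paired by mouse. The other 4 libraries came from the gate enriched for non-myelinating cells, nmSC, and are given beside the rest as levels.

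All groups shared 1 genotype and age. The mice carried P0Cre, a Cre transgene active in the Schwann cell lineage, together with a Rosa26 eYFP reporter that Cre switches on and a ubiquitous DsRed transgene, and were at postnatal day 5. Dissociated cells positive for eYFP were sorted by flow cytometry. The allSC gate took the whole eYFP-positive population, the mSC gate its part with high side scatter and the nmSC gate its part with low side scatter, so cells like those of the mSC gate were also in allSC. Because the reporter marks every descendant of a cell in which the transgene was active, it does not by itself separate Schwann cell stages. RNA was amplified by Smart-Seq2 and counted per gene.

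Immature Schwann cells divide in the nerve of the newborn, sort out large axons and then either wrap one axon in myelin or stay with bundles of small axons as non-myelinating (Remak) cells. Myelination goes with exit from the cell cycle and with a large output of myelin proteins and of cholesterol and other lipids. Immature and non-myelinating cells share surface molecules such as Ngfr, Ncam1 and L1cam, which myelinating cells lose.

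The 8 libraries held 10092477 to 16918122 counts. At this depth 3 counts corresponded to 0.177 to 0.297 CPM, the counts of a gene scaled to a common library size. The 50 genes with the most counts took 22.46% to 23.96% of counts in allSC and 26.88% to 31.62% in mSC, and the normalization factors (trimmed mean of M-values, TMM) were 0.9857 to 1.033 and 0.7438 to 0.871. The mSC library of mouse 4 stood apart from the other mSC libraries. Its chi-square per degree of freedom against them was 50.6 to 95.7, where the other mSC pairs gave 6.01 to 22.1 and the allSC pairs 4.03 to 11.4. Counts of calls over all genes and over the lists of gene functions are therefore given with and without it.

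The Schwann cell identity of both gates was checked first. Sox10, the transcription factor that defines the lineage, stood at 152, 214, 330.3 and 372 CPM in the allSC libraries of mice 1 to 4 and at 125, 285, 337 and 322 CPM in the mSC libraries. The gates overlapped and the log2 difference was 0.01 ± 0.24 (SE). The neuregulin receptor Erbb3 averaged 642 CPM in allSC and 439.9 CPM in mSC and missed the threshold (edgeR adjusted p = 0.0623), which it passed without the mSC library of mouse 1 (edgeR adjusted p = 0.0244). S100b, a calcium-binding Schwann cell marker, was lower in allSC, at 123, 99.6, 119 and 129.7 CPM against 215, 231, 259 and 361 CPM in mSC. Of the 7 lineage markers, 3 were higher in mSC, S100b among them, and none was higher in allSC.

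Of 18597 genes tested, 1497 (8.05%) were higher in allSC and 1402 (7.54%) were higher in mSC. A gene was called when its Benjamini-Hochberg adjusted p in the quasi-likelihood F test of edgeR was under 0.05. In these bulk libraries fewer cells of a kind and less RNA per cell cannot be told apart. Fold sizes differed between the directions. Of the genes higher in allSC, 1026 differed at least 2-fold, against 126 of those higher in mSC. The median called difference was 2.54-fold towards allSC and 1.54-fold towards mSC. Among genes with a mean of at least 10 CPM, 148 genes were more than 4-fold higher in allSC, led by Rxrg at 20.5-fold, whereas no gene was more than 3-fold higher in mSC and Sult1a1 had the largest difference at 2.69-fold. Direction also varied with level. At a mean of 100 CPM or more, 79 of 2044 genes were higher in allSC and 578 were higher in mSC, while between 1 and 10 CPM the counts were 698 and 88 of 5901. Without the mSC library of mouse 4 the counts were 1523 and 1947. They dropped to 992 and 715 without the allSC library of mouse 2 and to 991 and 769 without its mSC library, and the genes higher in mSC numbered 830 without the allSC library of mouse 3 and 836 without that of mouse 4. The balance of calls depended on scaling, with 51.6% of calls higher in allSC under TMM, 91.1% under library size alone and 81.8% under library size without the 50 largest genes. The median log2 difference of all tested genes moved from 0.06 to 0.37 and 0.27 under these scalings.

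**Figure D1:**
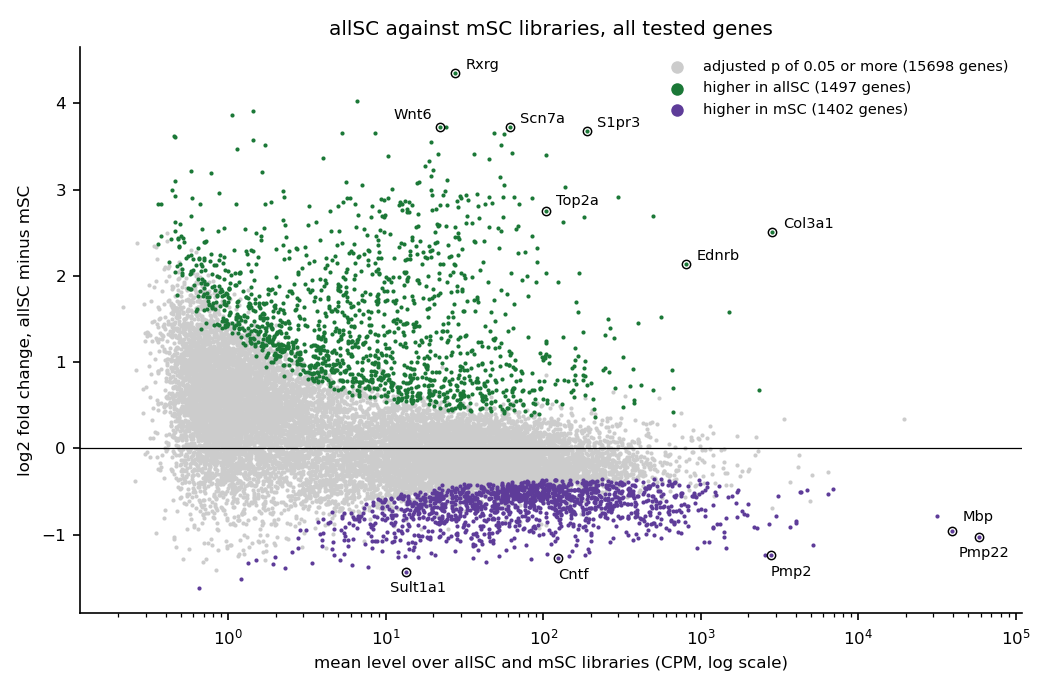
Mean level over the 8 libraries (CPM, log scale) against the log2 fold change, allSC minus mSC, for all 18597 tested genes, 1 point per gene. Points higher in allSC (1497 genes) reach a log2 difference of 4.36 at Rxrg, while points higher in mSC (1402 genes) lie close together below 0, and more of them sit at high levels.

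**Figure D2:**
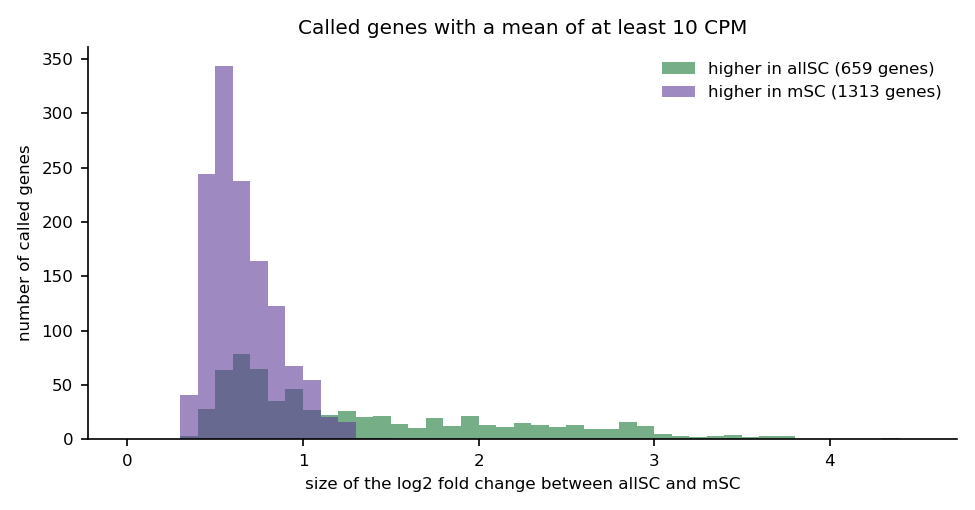
Number of called genes by the size of their log2 fold change for genes with a mean of at least 10 CPM. The 1313 genes higher in mSC are heaped at small differences, and the 659 genes higher in allSC extend in a long tail.

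The gene with the largest difference was Rxrg, which encodes a retinoid X receptor, the nuclear receptor partner of retinoic acid and other receptors. Its level was 45.5, 55.3, 55.3 and 53.1 CPM in the allSC libraries of mice 1 to 4 and 1.29, 3.31, 2.33 and 3.87 CPM in the mSC libraries. All 4 pairs differed in the same direction and the groups were far apart (log2 difference 4.36 ± 0.21, edgeR adjusted p = 2.84e-09). Scn7a, a sodium channel family member typical of non-myelinating Schwann cells, measured 124, 112, 107 and 114 CPM in allSC and 7.95, 8.09, 9.17 and 9.49 CPM in mSC. It was 13.2-fold higher in allSC (edgeR adjusted p = 6.43e-10). The other genes of the leading 12 with a mean of at least 10 CPM were Smim5, Wnt6, S1pr3, Galnt6, Ltbp4, Gfra2, L1cam, Lgr5, Adamts15 and Ntm, between 10.7-fold and 13.2-fold higher in allSC. Several encode proteins of the cell surface or outside the cell, among them the adhesion molecule neurotrimin (Ntm), the matrix protease Adamts15 and Ltbp4, which holds latent TGF-beta. The lowest allSC library lay above the highest mSC library in these 12 genes, which were picked for the size of their difference, and in 11.6% of all tested genes.

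Genes that mark immature and non-myelinating Schwann cells were higher in the unselected cells. Of 27 listed genes 26 were tested. Among these, 15 (57.7%) were higher in allSC and 1 (3.85%) in mSC, beside 8.05% and 7.54% of all tested genes. The median log2 difference was 0.97 against 0.06 over all tested genes. Leaving out the mSC library of mouse 4 gave 15 and 1 again. L1cam, an adhesion molecule of Schwann cells and axons, stood at 106, 95.7, 101 and 96.2 CPM in allSC and 11.3, 10.4, 9.09 and 4.12 CPM in mSC. Ncam1, another adhesion molecule, stood at 295, 308, 327 and 314 CPM and 45.6, 44.01, 62.4 and 43.6 CPM. Neither gene's groups overlapped, a separation towards allSC found in 11.6% of all tested genes, and the differences were 11.5-fold and 6.42-fold. Ngfr, the low-affinity neurotrophin receptor, measured 152, 156, 179.9 and 183 CPM in allSC and 45.3, 42.1, 55.3 and 24.2 CPM in mSC, a log2 difference of 2.03 ± 0.18 (edgeR adjusted p = 1.2e-06). Matn2, an extracellular adaptor protein, measured 852, 782, 835 and 819.9 CPM and 357, 307, 306 and 182 CPM.

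Differences between members of the list were wide. Jun, a transcription factor active in immature and repair Schwann cells, was 1.90-fold higher in allSC, and Id2, which blocks helix-loop-helix factors, 1.88-fold. The junction protein Cdh2 and the integrin Itga4 were 3.49-fold and 3.35-fold higher. Cadm2, an adhesion molecule, went the other way, at 21.9, 24.99, 31.8 and 35.3 CPM in allSC and 53, 54.9, 59.8 and 54.3 CPM in mSC. Of the other classical markers, Gfap averaged 1.10 CPM in allSC and 0.570 CPM in mSC, Gap43 0.567 and 1.07 CPM, and Sox2 5.86 and 4.51 CPM. None of these 3 passed the test, and Gfap and Gap43 lay near the level of a few counts.

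**Figure D3:**
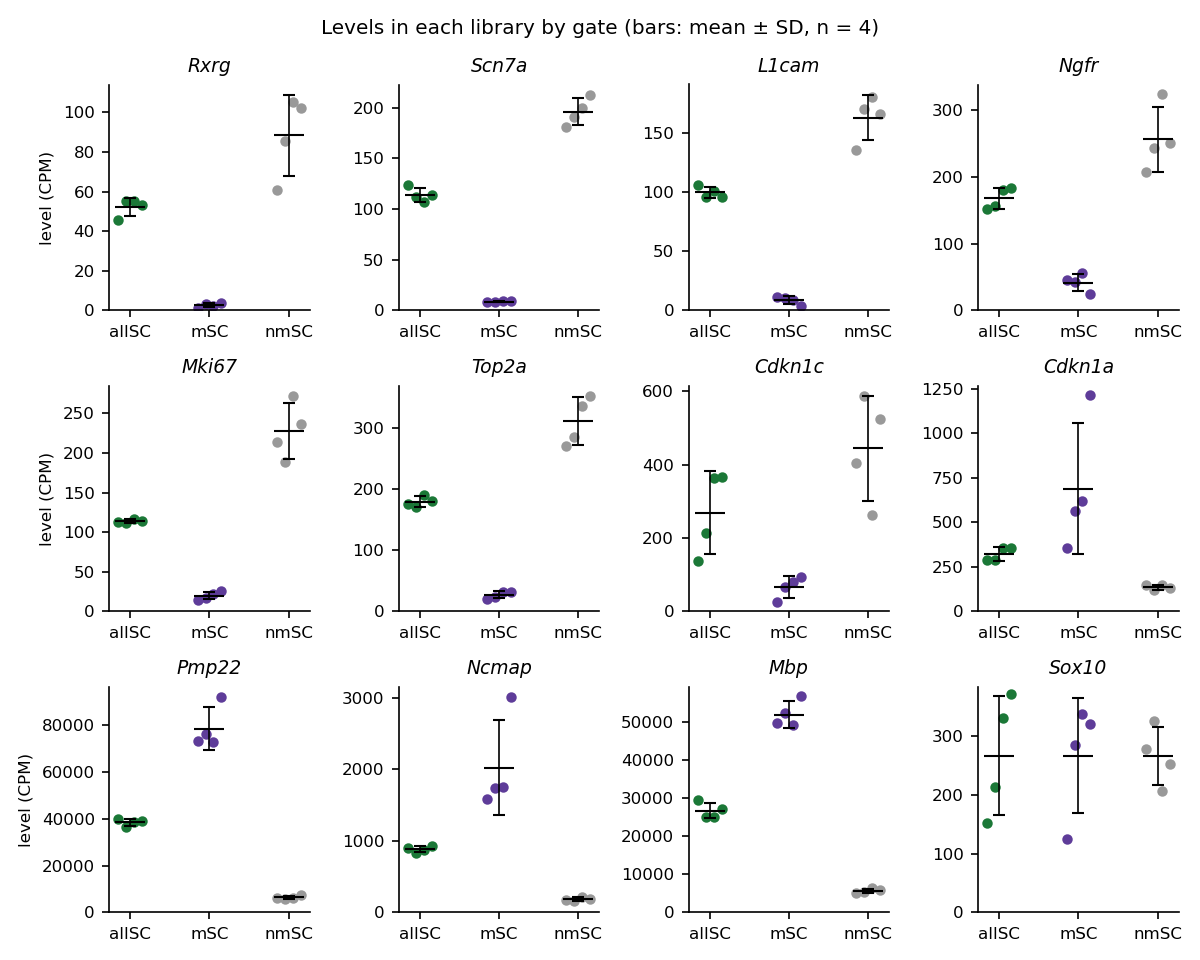
Level in CPM of 12 genes in each library by gate, 1 point per library, with black bars for the mean ± SD (n = 4). Rxrg, Scn7a, L1cam, Ngfr, Mki67, Top2a and Cdkn1c are higher in all allSC libraries than in all mSC libraries and higher on average again in nmSC, Pmp22, Ncmap and Mbp run in the opposite order, and the allSC and mSC points of Cdkn1a and Sox10 overlap.

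Cell division set the gates apart across a whole list. All 63 genes of mitosis and cytokinesis were tested and all 63 were higher in allSC, beside 8.05% of all tested genes. The list had a median log2 difference of 2.46 and a range from 1.02 to 3.05. The result was 63 of 63 without the mSC library of mouse 4 as well, and 62 of 63 without mouse 2. Mki67, a marker of cells in cycle, measured 113, 112, 117 and 114 CPM in allSC and 14.8, 17.3, 21.99 and 25.9 CPM in mSC. Top2a, which untangles chromosomes, measured 175, 172, 191 and 181 CPM and 20.7, 24, 31.6 and 32.1 CPM. The allSC values spanned a narrow band and the lowest was several times the highest mSC value. The list was led by the kinesin Kif18b at 8.29-fold, the kinase Melk at 7.98-fold and the spindle factor Tpx2 at 7.70-fold. Summed over the list, the level was 3012 to 3542 CPM in allSC and 538 to 823 CPM in mSC, and the ratio averaged 4.95 ± 0.70 (SD, n = 4 mice).

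DNA replication genes were also higher in allSC, though not all of them. Of 50 tested, 35 (70%) were higher in allSC, beside 8.05% of all tested genes, and none was higher in mSC. The median log2 difference of the list was 1.16. DESeq2 called 34 and 1, and at an unadjusted p under 0.05 edgeR had 39 and 1. The counts were 38 and 0 without the mSC library of mouse 4. Uhrf1, which carries DNA methylation through replication, measured 57.99, 59.8, 48.5 and 46.1 CPM in allSC and 6.52, 6.44, 11.2 and 4.75 CPM in mSC. Rrm2, the regulated subunit of ribonucleotide reductase, measured 62.2, 64.2, 60.5 and 56.3 CPM and 12.4, 9.57, 12.8 and 11.2 CPM. Both were separated in all 4 pairs, by 7.49-fold and 5.29-fold. Mcm10 followed at 4.66-fold, and Rrm1, the called member with the highest level, was 2.33-fold higher in allSC. In contrast, the sliding clamp Pcna averaged 74.4 CPM in allSC and 67.7 CPM in mSC with a log2 difference of 0.15 ± 0.15, and was not called.

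Cell cycle control genes moved in both directions. Of 40 genes, 22 (55%) were higher in allSC and 2 (5%) were higher in mSC, beside 8.05% and 7.54% of all tested genes. The counts were 22 and 4 without the mSC library of mouse 4. Foxm1, the transcription factor that drives genes of mitosis, was at 34.8, 29.1, 35.6 and 39.2 CPM in allSC and 4.08, 4.52, 7.54 and 2.25 CPM in mSC. Cyclin D1 (Ccnd1) was at 231, 248, 204 and 234 CPM and 104, 105, 125 and 182 CPM, a smaller difference of 1.81-fold. The 2 genes higher in mSC were both inhibitors of cyclin-dependent kinases. Cdkn1a stood at 286, 287, 357 and 357 CPM in allSC and 357, 565, 619 and 1213 CPM in mSC, where the libraries of mouse 1 came close and the groups overlapped by a narrow margin. Cdkn1b stood at 156, 169.8, 193 and 202 CPM and 250.1, 255, 267 and 344 CPM, without overlap, a separation towards mSC found in 11% of all tested genes. Another inhibitor, the imprinted gene Cdkn1c, was higher in allSC instead, at 136, 212, 362 and 366 CPM against 26.5, 67.1, 80.3 and 94.7 CPM (log2 difference 2.03 ± 0.28, edgeR adjusted p = 0.000103). Under TMM with all mice the 3 inhibitors thus split between the gates. The call of Cdkn1b was lost under library size alone, under library size without the 50 largest genes and without mouse 2 (edgeR adjusted p = 0.127, 0.0632 and 0.0763). Of 37 genes of DNA repair and replication stress, 23 (62.2%) were higher in allSC, beside 8.05% of all tested genes, and none was higher in mSC. The counts were 22 and 1 without the mSC library of mouse 4 and 15 and 0 without that of mouse 3. At an unadjusted p under 0.05 the edgeR counts were 26 and 0, and DESeq2 gave 22 and 0. The list was led by the glycosylase Neil3 (6.87-fold), Parpbp (5.73-fold) and Rad51ap1 (4.38-fold).

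The promoters of the called mitosis, replication and cholesterol genes were read for known motifs. The RefSeq windows (GRCm38.p6) run from 250 bases before to 50 bases after each annotated start and were searched on both strands. Promoter entries were found for 53 of the 63 called mitosis genes, 29 of the 35 called replication genes and 16 of the 23 called cholesterol genes. Below are stretches of 150 bases that end just before the start of genes from each list, with motif letters in capitals. In Kif11 and Ckap2, which encode a spindle kinesin and a spindle protein, the capitals mark CCAAT and the cell cycle homology region TTTGAA. In Uhrf1 and in Prim1, which encodes a DNA primase subunit, they mark E2F sites (GGCGGGAA). In Hmgcs1, an enzyme of cholesterol synthesis, they mark a sterol regulatory element (TCACNCCAC). Reverse complements are marked where the motif lies on the other strand.
Kif11: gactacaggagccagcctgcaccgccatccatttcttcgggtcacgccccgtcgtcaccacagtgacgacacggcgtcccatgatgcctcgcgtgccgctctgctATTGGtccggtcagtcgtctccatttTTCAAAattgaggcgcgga
Ckap2: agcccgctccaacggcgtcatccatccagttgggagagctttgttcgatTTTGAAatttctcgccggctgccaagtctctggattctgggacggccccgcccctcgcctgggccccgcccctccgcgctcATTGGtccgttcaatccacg
Uhrf1: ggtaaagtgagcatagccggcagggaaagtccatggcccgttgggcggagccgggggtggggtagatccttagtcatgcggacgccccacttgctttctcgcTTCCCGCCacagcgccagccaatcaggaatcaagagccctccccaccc
Prim1: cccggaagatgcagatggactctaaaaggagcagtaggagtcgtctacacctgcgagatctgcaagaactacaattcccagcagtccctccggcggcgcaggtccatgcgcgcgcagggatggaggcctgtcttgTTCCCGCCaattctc
Hmgcs1: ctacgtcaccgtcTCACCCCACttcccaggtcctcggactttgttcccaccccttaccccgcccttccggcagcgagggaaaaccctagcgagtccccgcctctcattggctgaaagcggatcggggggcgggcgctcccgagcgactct

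The stretch of Kif11 lies at chr19:37376232-37376381 on the plus strand. The stretch of Ckap2 lies at chr8:22185820-22185969 on the minus strand. The stretch of Uhrf1 lies at chr17:56303187-56303336 on the plus strand. The stretch of Prim1 lies at chr10:128015065-128015214 on the plus strand. The stretch of Hmgcs1 lies at chr13:119690201-119690350 on the plus strand. CCAAT was in the promoters of 71.7% of the mitosis genes, 58.6% of the replication genes and 93.8% of the cholesterol genes, against 42.4% of all tested genes and 41.1% of all genes in the promoter table. TTTGAA was in those of 73.6% of the mitosis genes, 20.7% of the replication genes and 6.2% of the cholesterol genes, against 16.7% of tested genes and 20.2% of all genes. An E2F motif (TTTGGCGC, TTTCGCGC or GGCGGGAA) was in 55.2% of the replication genes and 5.7% of the mitosis genes, against 5.2% of tested genes and 3.4% of all genes. The sterol element TCACNCCAC was in 1 of 16 cholesterol genes and in 1.4% of tested genes. These shares describe letters in a window and were not tested.

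Kif11 averaged 82.2 ± 5.15 CPM (SD, n = 4) in allSC and 11.9 ± 3.87 CPM in mSC. Ckap2 averaged 42.6 ± 6.83 CPM and 6.29 ± 2.52 CPM. Prim1 averaged 18.5 ± 0.903 CPM and 4.01 ± 0.107 CPM. Each of the 3 was higher in allSC in all 4 pairs.

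Receptors for growth and guidance signals were more often higher in allSC. Of 63 tested, 23 (36.5%) were higher in allSC and 6 (9.52%) were higher in mSC, beside 8.05% and 7.54% of all tested genes. The share higher in mSC was thus near that of all tested genes. Receptor counts were 23 and 11 without the mSC library of mouse 4. The genes higher in mSC numbered 3 without the mSC library of mouse 2 and 1 under library size alone. S1pr3, a receptor for sphingosine 1-phosphate, measured 351, 339, 352 and 363 CPM in allSC and 33.02, 28.6, 37.3 and 12.7 CPM in mSC. Gfra2, the neurturin co-receptor, measured 29.1, 34.04, 36.3 and 43.2 CPM and 2.79, 2.87, 3.50 and 2.75 CPM. Lgr5, a receptor for R-spondins, measured 113, 117, 122 and 113 CPM and 8.43, 10.4, 13.3 and 11.7 CPM. The groups of these 3 genes, named for the size of their difference, did not overlap. Such a separation towards allSC was found in 11.6% of all tested genes. Their differences were 12.8-fold, 11.8-fold and 10.8-fold. The endothelin receptor Ednrb, the called receptor with the highest level, measured 1216, 1320, 1405 and 1326 CPM and 274, 294, 333 and 297 CPM. Related receptors went in opposite directions. Gfra1, the co-receptor for GDNF, was 1.65-fold higher in mSC, a call lost without the mSC library of mouse 2 (edgeR adjusted p = 0.0526) or the allSC library of mouse 3 (edgeR adjusted p = 0.0541). Lgr4, the relative of Lgr5, was 1.63-fold higher in mSC. The Wnt receptor Fzd3 was 1.67-fold higher in mSC.

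Secreted signals were called in both directions. Of 45 listed genes 36 were tested. Higher in allSC were 9 (25%) and higher in mSC 9 (25%), beside 8.05% and 7.54% of all tested genes. The counts were 8 and 10 without the mSC library of mouse 4. These counts rested in part on single libraries. They were 4 and 7 without the mSC library of mouse 3, 5 and 6 without the allSC library of mouse 4, 6 and 4 without the allSC library of mouse 2 and 6 and 5 without its mSC library. Under library size alone they were 12 and 5, and with genes of at least 10 CPM alone 2 and 4. On the allSC side, Wnt6, a Wnt ligand named by the size of its difference, measured 32.8, 38.99, 48.5 and 42.99 CPM and 2.72, 4.09, 3.34 and 2.00 CPM in mSC. Pleiotrophin (Ptn), a heparin-binding growth factor, measured 73.7, 96.7, 107 and 105 CPM and 7.95, 9.22, 11.9 and 14.98 CPM. Sema3g, a guidance molecule, was 5.05-fold higher in allSC. Pdgfb was called as well, but its mSC libraries lay between 0 and 0.136 CPM, under the level of 3 counts, so no fold is given, and the call was lost without the mSC library of mouse 3 (edgeR adjusted p = 0.0532). On the mSC side, ciliary neurotrophic factor (Cntf) measured 83.4, 64.3, 68.9 and 68.7 CPM in allSC and 143, 158, 153 and 252 CPM in mSC. Fgf7 measured 40.1, 38.7, 36.7 and 46.6 CPM and 89.6, 90.01, 85.6 and 91.5 CPM. These differences came to 2.41-fold and 2.21-fold, and neither gene's groups overlapped. Both genes were named for the size of their difference, and such a separation towards mSC was found in 11% of all tested genes. Wnt16 was 2.62-fold higher in mSC, at mean levels of 1.28 and 3.30 CPM, and its call was lost without the allSC library (edgeR adjusted p = 0.0651) or the mSC library (edgeR adjusted p = 0.0613) of mouse 2.

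Extracellular matrix genes were higher in allSC in part. Of 45 genes, 18 (40%) were higher in allSC and 1 (2.22%) was higher in mSC, beside 8.05% and 7.54% of all tested genes. The median log2 difference of the list was 0.45. The counts were 18 and 3 without the mSC library of mouse 4. Col3a1, a fibrillar collagen, measured 4830, 4632, 4927 and 4843 CPM in allSC and 941, 895, 1218 and 454 CPM in mSC. Periostin (Postn), a matricellular protein, measured 910.1, 849, 853 and 840.1 CPM and 136, 127, 183 and 96.6 CPM. The differences came to 5.69-fold and 6.49-fold. Sparcl1 was 7.54-fold and Fbln1 12.7-fold higher in allSC, the latter from a mean of 1.19 CPM in mSC. Col12a1, which binds to collagen fibrils, was 1.86-fold higher in mSC. Several basal lamina genes of the list were not called. Lama2 averaged 902 CPM in allSC and 851 CPM in mSC, Lamc1 694 and 686 CPM, and Col4a1 784 and 814 CPM, and none of these 3 was called.

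Transcription factors were called in both directions. Besides Rxrg, the factors with a mean of at least 10 CPM and the largest differences towards allSC were Egr3, Foxm1, Tcf19 and Irf1. At a lower level, E2f8, an E2F family repressor, was 6.43-fold higher in allSC. Egr3, an immediate early factor of the Egr family, measured 34.97, 41.4, 48.3 and 51.4 CPM in allSC and 4.82, 6.18, 5.52 and 3.50 CPM in mSC. Irf1, a factor of interferon responses, measured 169.7, 130.2, 109 and 98.98 CPM and 43.5, 25.9, 29.1 and 27.7 CPM. Tcf19 was 4.86-fold higher. Towards mSC the leading factors with a mean of at least 10 CPM were Tead4, Dbp, Klf4, Maf and Nr4a2, between 1.66-fold and 2.02-fold higher there. Nr4a2, an orphan nuclear receptor, measured 156, 116, 131 and 138 CPM in allSC and 264, 219, 195 and 218 CPM in mSC. The calls of 3 of these rested on single libraries. That for Maf was lost without the allSC library of mouse 1 or 4 (edgeR adjusted p = 0.0615 and 0.0684). That for Dbp was lost without the allSC or the mSC library of mouse 2 (edgeR adjusted p = 0.0602 and 0.0509). That for Klf4 was lost without the mSC library of mouse 2 or the allSC library of mouse 4 (edgeR adjusted p = 0.0526 and 0.0730).

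Regulators of myelination were called in both directions. Of 35 listed genes 33 were tested, and 4 were higher in allSC (Rxrg, Egr3, Nfatc4 and Egr1) while Nab1 and Qk were higher in mSC, with a median log2 difference of 0.08. The shares called were 12.1% and 6.06%, beside 8.05% and 7.54% of all tested genes. The counts were 6 and 5 without the mSC library of mouse 4, 16 and 2 under library size alone, 10 and 2 under library size without the 50 largest genes and 8 and 2 with genes of at least 10 CPM alone. Egr2 (Krox20), the transcription factor required for myelination, measured 603, 548, 473 and 485 CPM in allSC and 662, 727, 570.1 and 459.5 CPM in mSC. The groups overlapped and the log2 difference of -0.19 ± 0.12 was not called (edgeR adjusted p = 0.326), whereas without the mSC library of mouse 4 it was -0.31 (edgeR adjusted p = 0.0497). Pou3f1 (Oct6), the factor of promyelinating cells, measured 29.2, 40.1, 45.7 and 50.04 CPM and 31.6, 43.8, 45.5 and 57.3 CPM, with a log2 difference of -0.11 ± 0.25. Egr1, the Egr family member of immature cells, measured 303, 266, 227 and 221 CPM and 139, 124, 64.7 and 84.8 CPM. Nab1, a cofactor of Egr proteins, measured 33.6, 25.2, 28.2 and 32.02 CPM in allSC and 65.2, 60.8, 55.5 and 61.3 CPM in mSC. Qk, an RNA-binding protein of myelinating glia, measured 1297, 1359, 1493 and 1427 CPM and 2329, 2311, 2166 and 2698 CPM. Nfatc4 lay at 0.192 CPM in mSC, near the level of 3 counts, and its call was lost without the mSC library of mouse 3 (edgeR adjusted p = 0.0541).

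**Figure D4:**
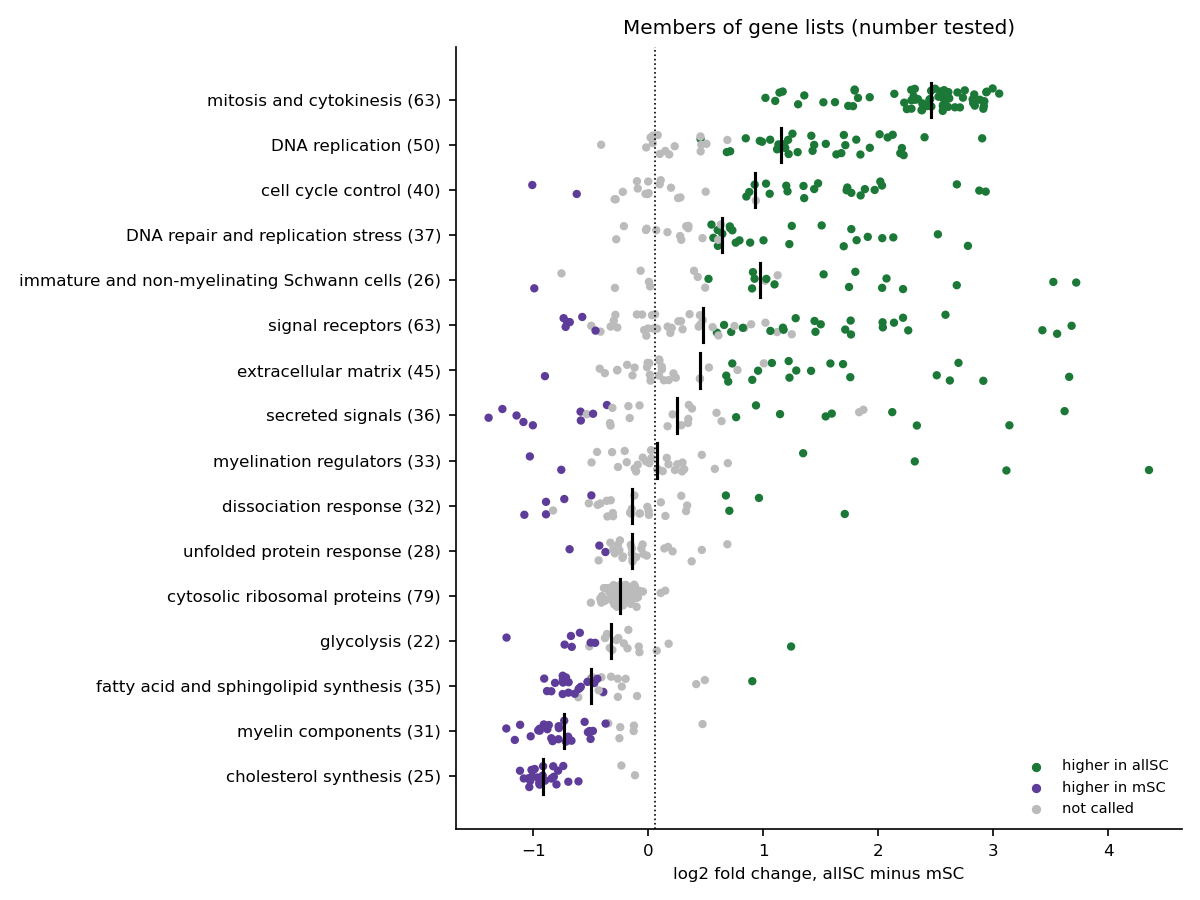
Log2 fold change, allSC minus mSC, of each tested member of 16 gene lists, 1 point per gene, coloured by call. Black ticks mark list medians and the dotted line the median of all tested genes (0.06). All 63 points of mitosis and cytokinesis are called higher in allSC, while 25 of 31 myelin components and 23 of 25 cholesterol genes are called higher in mSC.

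Myelin components were lower in the unselected cells by up to 2.35-fold. Of 31 genes, 25 (80.65%) were higher in mSC and none was higher in allSC, with a median log2 difference of -0.73. The share higher in mSC was 7.54% of all tested genes and 28.3% of genes at a mean of 100 CPM or more. By DESeq2 the counts were 24 and 0, and at an unadjusted p under 0.05 edgeR had 25 and 1. Without the mSC library of mouse 4 the count was 26, and under library size alone 12. It was 11 without mouse 2 and 12 without mouse 3. Pmp22, a membrane protein of compact myelin, measured 39769, 36454, 38401 and 38879 CPM in allSC and 73129, 75978, 72553 and 92055 CPM in mSC. Mbp, the myelin basic protein, measured 29510, 25212, 25218 and 27182 CPM and 49738, 52337, 49231 and 56832 CPM. Pmp2, the fatty acid binding protein of myelin, measured 1693, 1490, 1652 and 1712 CPM and 3304, 3542, 3588 and 5228 CPM. In these 3 genes each mSC library lay above each allSC library, by 2.03-fold, 1.94-fold and 2.35-fold on average, a separation found in 2042 of 18597 tested genes (11%). Ncmap, a protein of noncompact myelin, measured 907, 826, 873 and 929 CPM and 1591, 1736, 1753 and 3017 CPM, and the tetraspanin Cd9 was 2.17-fold higher in mSC.

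Itgb4, an integrin subunit, had the highest log2 difference of the myelin list, at 0.47 ± 0.20, and was not called (edgeR adjusted p = 0.122). Drp2, which belongs to the periaxin complex, averaged 428 CPM in allSC and 831 CPM in mSC.

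Cholesterol synthesis formed the most complete list on the mSC side. Of 25 genes 23 (92%) were higher in mSC and none was higher in allSC, with a median log2 difference of -0.92. Beside this stand 7.54% of all tested genes and 28.3% of genes at a mean of 100 CPM or more. DESeq2 gave 23 and 0, as did an unadjusted p under 0.05 in edgeR. Without the mSC library of mouse 4 the count was 24. Hmgcs1, which makes the precursor of mevalonate, measured 2581, 2533, 2425 and 2690 CPM in allSC and 5277, 5137, 4905 and 4000 CPM in mSC. Fdps and Mvd were 2.12-fold and 2.06-fold higher in mSC. Summed over the list, the level was 10008 to 10825 CPM in allSC and 19132 to 20348 CPM in mSC, and mSC exceeded allSC by 1.89 ± 0.11 fold (SD, n = 4 mice). The transcription factors that regulate the pathway were not called. Srebf2 averaged 191 CPM in allSC and 192 CPM in mSC, and Srebf1 116 and 113 CPM.

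Fatty acid and sphingolipid synthesis showed smaller differences. Of 35 genes, 20 (57.1%) were higher in mSC and 1 (2.86%) was higher in allSC, beside 7.54% and 8.05% of all tested genes. At a mean of 100 CPM or more, 28.3% of tested genes were higher in mSC. Counts of the list were 26 and 1 without the mSC library of mouse 4. The count higher in mSC was 12 without the mSC library of mouse 2, 13 without the allSC library of mouse 2, 3 or 4, 8 without mouse 2 and 9 under library size alone. The elongases Elovl6 and Elovl7 were 1.87-fold and 1.84-fold higher in mSC, the desaturase Scd1 1.80-fold and Elovl1 1.75-fold. The exception was Elovl5, an elongase of polyunsaturated fatty acids, at 41.7, 45.5, 39.8 and 43.3 CPM in allSC and 22.2, 18.7, 25.5 and 25.4 CPM in mSC. The groups of Elovl5 did not overlap, in the direction opposite to its relatives, a separation found in 11.6% of all tested genes.

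Among genes with a mean of at least 10 CPM, the 12 with the largest differences towards mSC were Sult1a1, Atxn1, Cntf, Col23a1, Pgf, Hpgd, H2-DMb1, Cgref1, Chst2, Ecscr, Pmp2 and Aldoc, between 2.35-fold and 2.69-fold. Sult1a1, a sulfotransferase of phenols, measured 6.19, 7.17, 8.25 and 6.85 CPM in allSC and 13.7, 19.7, 17.7 and 28.5 CPM in mSC. Chst2, a sulfotransferase of carbohydrates, measured 86.6, 97.5, 85.3 and 77.8 CPM and 195, 229, 184 and 213 CPM. Neither gene's groups overlapped, but both were picked for the size of their difference, and 11% of all tested genes were separated towards mSC. In nmSC, Sult1a1 averaged 0.973 CPM and Chst2 6.38 CPM. Hpgd breaks down prostaglandins and Aldoc is an aldolase of glycolysis. Of the 24 genes named by size in the 2 directions, 13 overlap another annotated gene, and reads shared between overlapping genes could not be assigned here.

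Other programmes differed less. Of 22 glycolysis genes 7 were higher in mSC, led by Aldoc, Eno1 (1.66-fold) and Aldoa (1.59-fold), while Pfkfb3, which makes an activator of glycolysis, was 2.37-fold higher in allSC. The glycolysis share higher in mSC was 31.8%, beside 7.54% of all tested genes and 28.3% of genes at a mean of 100 CPM or more. The glycolysis count was again 7 without the mSC library of mouse 4, 4 without the allSC library of mouse 4 and 2 under library size alone. Of 28 genes of the unfolded protein response, Selenos, Atf4 and Canx were higher in mSC and none was higher in allSC. The share higher in mSC was 10.7%, near the 7.54% of all tested genes and below the 28.3% of genes at a mean of 100 CPM or more. The counts were 5 and 0 with DESeq2 and 8 and 2 at an unadjusted p under 0.05 in edgeR. They were 5 and 1 without the mSC library of mouse 4 and 0 and 3 under library size alone. The call of Atf4 was lost without any single library except the mSC library of mouse 1, and that of Canx without any except the mSC library of mouse 4 (edgeR adjusted p from 0.0592 to 0.171 and from 0.0641 to 0.123). Of 32 tested genes of the dissociation response, immediate early and stress genes that warm enzyme digestion can induce, 4 were higher in allSC and 5 in mSC, or 3 and 5 without the mSC library of mouse 4. These counts fell to 2 and 3 without the allSC library of mouse 2, 3 and 2 without its mSC library or the allSC library of mouse 4, 3 and 3 without the allSC library of mouse 3, 2 and 4 without the allSC library of mouse 1 and 2 and 5 without the mSC library of mouse 3. Under library size alone they were 8 and 2. The summed level of the list was 4940 to 7080 CPM in allSC and 4329 to 7490 CPM in mSC. Fos averaged 2140 CPM in allSC and 2270 CPM in mSC and was not called. Ier2 was 3.27-fold higher in allSC, and Gadd45b 2.11-fold higher in mSC. The shares called were 12.5% higher in allSC and 15.6% higher in mSC, beside 8.05% and 7.54% of all tested genes. The immediate early genes Jun, Egr1 and Egr3 were counted in other lists. They were higher in allSC, by 1.90-fold, 2.54-fold and 8.67-fold, so the split of this list leaves them out. None of 79 tested genes of cytosolic ribosomal proteins was called by edgeR, which also had 0 at an unadjusted p under 0.05, or by DESeq2. The count was 0 again without the mSC library of mouse 4, and 4 were higher in mSC without that of mouse 1. Their summed level ran from 8706 to 13820 CPM in the mSC libraries of mice 1 to 3 and reached 23922 CPM in that of mouse 4. Mitochondrially encoded genes were counted unevenly. In allSC, mt-Co2 and mt-Atp8 averaged 0 CPM, mt-Atp6 0.019 CPM and mt-Co3 3.16 CPM, beside 5825 CPM for mt-Co1. The cause was not tested. Of 10 tested mitochondrially encoded genes, mt-Co1 and mt-Cytb were higher in mSC, by 1.39-fold and 1.42-fold. The list held 2 calls without the mSC library of mouse 4 as well and 6 without that of mouse 1. It held 0 under library size alone and 0 under library size without the 50 largest genes. Without the allSC library of mouse 2 both calls were lost (edgeR adjusted p = 0.0511 and 0.114), as they were without its mSC library (edgeR adjusted p = 0.0535 and 0.100), and that of mt-Cytb also without the allSC library of mouse 1 or 4 or the mSC library of mouse 3 (edgeR adjusted p = 0.0679, 0.130 and 0.0621).

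Defining markers of other cells were mostly low in both gates. In macrophage markers the sum was 25.6 to 40.7 CPM in allSC and 19.5 to 28.5 CPM in mSC, and edgeR called none of the 8 tested, with 2 higher in allSC at an unadjusted p under 0.05 and none by DESeq2. In endothelial markers the sum was 56.8 to 61.8 CPM in allSC and 79.5 to 99.6 CPM in mSC, where Kdr, Egfl7 and Vwf were higher. The defining markers Pecam1 and Cdh5 averaged 1.14 and 0.934 CPM in allSC and 1.25 and 0.428 CPM in mSC. Of 11 tested fibroblast markers Col1a1 and Col3a1 were higher in allSC, and these 2 made up nearly all of the summed level, which was 6885 to 7337 CPM in allSC and 913 to 2270 CPM in mSC. Fibroblast markers outside the collagens were low, as Pdgfra averaged 2.64 CPM in allSC and 2.34 CPM in mSC, Dpt 0.703 and 0.418 CPM, and Dcn 10.4 and 12.8 CPM, without a call. Aif1 of the macrophage list, Lypd2 of the perineurial list and Mcpt4 of the mast cell list were at 0 in all 4 mSC libraries. The summed level of mural markers was 582 to 675 CPM in allSC and 229.9 to 292 CPM in mSC, nearly all of it from Mcam. Of these markers Mcam was higher in allSC (586 against 215 CPM) and Tagln in mSC, while Acta2 and Des stayed under 1 CPM on average in both gates. Cldn1 and Msln of the 8 tested perineurial markers were higher in allSC and Kank4 in mSC, with sums of 287 to 319.7 CPM and 237 to 299 CPM. Kit, of the 4 tested lymphocyte and mast cell markers, was higher in allSC (17.7 against 5.45 CPM), while the mast cell protease Cpa3 averaged 1.10 and 0.907 CPM. Of 5 tested muscle markers Myh8 and Ttn were higher in allSC, where the sum was 43 to 54.4 CPM against 21.5 to 35.5 CPM in mSC. Of 10 neuronal markers Nefl and Uchl1 were higher in mSC, where the sum was 51 to 91.5 CPM against 35.5 to 46.8 CPM in allSC. Of 5 tested melanocyte markers Tyrp1 was higher in allSC, and Pmel and Mitf in mSC. None of the tested erythroid and adipocyte markers was called by edgeR or DESeq2, with 0 of 4 and 2 of 4 at an unadjusted p under 0.05. The part of other cells in the results was not tested beyond these levels.

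The nmSC libraries give the scale of the difference. In mitosis and cytokinesis the summed level averaged 680.5 CPM in mSC, 3295 CPM in allSC and 5434 CPM in nmSC. Within each mouse, allSC lay at 55.6% ± 5.4 (SD, n = 4 mice) of the distance from mSC to nmSC. The same measure was 55.5% ± 7.3 for markers of immature and non-myelinating cells, 53.3% ± 5.8 for myelin components and 54.4% ± 3.5 for cholesterol synthesis. In each mouse these 4 sums lay between those of the other gates. Further lists varied more between mice, at 50.1% ± 9.7 for fatty acid and sphingolipid synthesis, 60.2% ± 22.6 for extracellular matrix, 48.5% ± 18.5 for secreted signals and 60.2% ± 16.5 for glycolysis. The summed levels of 5 other lists lay outside the other gates in 1 mouse each, namely cell cycle control, myelination regulators, the unfolded protein response, cytosolic ribosomal proteins and imprinted genes. Of the 659 genes called higher in allSC with a mean of at least 10 CPM, 0 had all 4 allSC libraries above all 8 mSC and nmSC libraries. Rxrg averaged 88.5 CPM in nmSC, Scn7a 196 CPM and Top2a 311 CPM, each above its allSC level, and Pmp22 averaged 6439 CPM, below it. The allSC gate covered the cells of both other gates, and these comparisons share its libraries. Levels in between thus follow from the sorting, and these values, the count of 0 among them, are given as levels only.

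**Figure D5:**
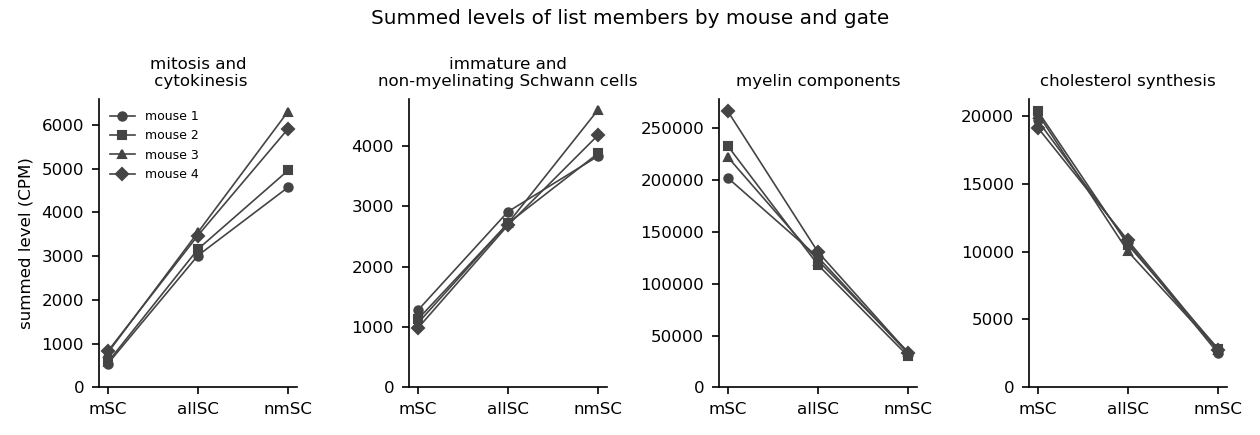
Summed level (CPM) of the members of 4 gene lists in mSC, allSC and nmSC, 1 line per mouse. In each mouse the allSC point lies between the other gates, rising towards nmSC for mitosis and for immature markers and falling for myelin components and cholesterol synthesis.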

How the data were processed

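Schwann cells positive for eYFP were sorted from sciatic nerves of 4 mice into 3 gates, and 1 Smart-Seq2 library was made per mouse and gate, without molecular identifiers and sequenced single-end. Per the labels' processing notes, the authors used bcl2fastq, aligned with STAR (2.6.1c) to GRCm38.p5 and counted with featureCounts. The deposited values are raw counts per gene, and the settings for strand, multiple mapping and overlapping genes are not given in the sources used here. Gene names and positions came from GENCODE M21, which matched 25664 of 25700 identifiers.

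The counts of all 12 libraries were fitted in edgeR (4.0.16, R 4.3.3) with TMM factors, filterByExpr by gate, and gate and mouse as terms (6 residual degrees of freedom). The labels give each library a subject number, shared by the 3 gates and taken as the mouse, so the mouse was a block. Deviations from the gate means correlated between the allSC and mSC libraries of 1 mouse by 0.246, 0.0391, 0.0609 and 0.109 for mice 1 to 4. For 1 of the 4 allSC libraries, that of mouse 1, the best match was the mSC library of its own mouse. The allSC against mSC contrast was tested by quasi-likelihood F test with Benjamini-Hochberg adjustment over all tested genes. Levels are CPM with TMM-scaled library sizes, and standard errors were computed from the F statistic. Intervals from sampling depth were not used. In 5 simulated draws of 17891 genes for this contrast, with 200 genes changed, 10.7% of changes of 1.5-fold, 51% of 2-fold and 80.3% of 4-fold were recovered, and 6.11% of calls were false. The draws gave all libraries a common mean profile, with no mouse effect and no other difference between gates. They also changed far fewer genes than the 2899 called here, so these rates hold for that setting and not for the real contrast.

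The members and lists were chosen with earlier results of these data known. Genes were named by rule: the 12 largest called differences per direction with a mean of at least 10 CPM, the same direction in all 4 pairs and an annotated symbol that is not a predicted gene, the 3 largest called members of each list in its main direction with its highest called member and up to 3 going the other way, the leading transcription factors, the called genes of highest level that differ at least 2-fold, and markers. Up to 5 genes with all allSC libraries above all others would also have been named, and there were none. Kif11, Ckap2, Prim1, Jun, Id2, Cdh2, Itga4, Gfap, Gap43, Sox2, Drp2, Pcna, Itgb4, Srebf1, Srebf2, Lama2, Lamc1, Col4a1 and Fos were named after their values were seen, as were the lists of MHC class II and imprinted genes. The promoters printed are those of the called members with the largest difference that hold the motifs in the stretch shown and do not lie on chromosome 18. Alternatives covered scaling, DESeq2 (1.42.0), filters on low counts, the block, the 8 libraries alone, and each library or mouse left out. Some members of the lists, although counted, are not reported here by name.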

Additional observations from a re-analysis of the deposited data

Results flagged for a closer look

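Among 128 groups of 4 libraries examined, the sums of gene lists and the genes given by library, 10 held a library whose gap to its nearest neighbour took up nearly the whole range, and chance gives about 1 in 20 groups. The mSC library of mouse 4 was the distant one in 7 of them. It was the highest for Pmp2 (5228 CPM), Ncmap (3017 CPM), Cntf (252 CPM), H2-DMa (207 CPM) and the summed level of glycolysis genes (7293 CPM). It was the lowest for the summed levels of DNA repair and replication stress (523 CPM) and of fatty acid and sphingolipid synthesis (16562 CPM). The mSC library of mouse 3 was the highest for Ncam1 (62.4 CPM) and Gfra2 (3.5 CPM). The allSC library of mouse 1 was the highest for the summed level of immature and non-myelinating markers (2911 CPM).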

How the results depend on the processing

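No gene called in either direction was called in the opposite direction under any alternative. Under library size alone 3712 genes were higher in allSC and 362 in mSC, and under library size without the 50 largest genes 2513 and 558. With genes of a mean of at least 10 CPM alone, 800 were higher in mSC. DESeq2's Wald test gave 1514 and 1992. The fit without the replicate block, which ignores the pairing by mouse, gave 1636 and 1630, and 95.9% and 97.9% of the calls were shared with it. Leaving out 1 library gave 991 to 1655 genes higher in allSC and 715 to 1947 higher in mSC. Leaving out 1 mouse gave 795 to 1572 and 372 to 1588, with the lowest counts, 795 and 372, without mouse 2 and 878 and 600 without mouse 3. Of 2746 values of 132 genes under these alternatives, 2569 stayed on their side of the threshold, 168 lost the call and 9 gained one. Among values called in either fit 0 reversed. A change of direction was not counted where neither fit called the gene. The median of secreted signals less that of all tested genes turned from 0.19 to -0.22 with genes of at least 10 CPM alone and ran from -0.0807, without the mSC library of mouse 1, to 0.232 when single libraries were left out, and that of the dissociation response turned from -0.21 to 0.13 with genes of at least 10 CPM alone. The cause was not tested. Depth limited genes under about 1 CPM, where 3 counts make up a large part of the level.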

Other observations

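Genes of antigen presentation on MHC class II were picked out after their values were seen. The chaperones that load peptide were lower in the unselected cells. H2-DMa measured 71.4, 56.4, 62.1 and 58.5 CPM in the allSC libraries of mice 1 to 4 and 124, 138, 127 and 207 CPM in the mSC libraries, and was 2.34-fold higher in mSC. H2-DMb1 was 2.37-fold higher in mSC. The presenting chains themselves were low, as H2-Ab1 averaged 5 CPM in allSC and 5.74 CPM in mSC, and the invariant chain Cd74 averaged 0.463 and 0.257 CPM. Of 10 tested genes, H2-Aa was higher in allSC at a mean of 0.684 CPM against 0.155 CPM, which lies near the level of 3 counts. That call was lost without the mSC library of mouse 1, 2 or 3 or the allSC library of mouse 2 or 3 (edgeR adjusted p from 0.0736 to 0.139) and with DESeq2.

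Imprinted genes, also picked out after their values were seen, were split between the gates. Of 18 tested, 5 (27.8%) were higher in allSC and 3 (16.7%) in mSC, beside 8.05% and 7.54% of all tested genes. Besides Cdkn1c, the growth factor adaptor Grb10 was 2.15-fold higher in allSC and Nnat 2.78-fold, while Snrpn was 1.85-fold, Ndn 1.43-fold and Sgce 1.33-fold higher in mSC. The call of Sgce was lost without the allSC library of mouse 2, 3 or 4 or the mSC library of mouse 2 (edgeR adjusted p from 0.0822 to 0.146). The counts of imprinted genes were also 5 and 3 without the mSC library of mouse 4. They were 7 and 1 under library size alone, 6 and 1 under library size without the 50 largest genes and 5 and 1 without mouse 2. In each of these the call of Ndn was lost (edgeR adjusted p = 0.173, 0.0655 and 0.108), as was that of Sgce.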
